A study of Mus musculus with 90 samples.

Results

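S961, a peptide antagonist of the insulin receptor, was given on top of the synthetic glucocorticoid dexamethasone (dex) to fed wild-type mice, and the RNA of 4 of their livers was compared with that of 4 livers from fed mice given dex alone. These 8 livers were chosen by the titles of their columns in the expression table, with no use of measured values. They are 8 of 90 samples of the series, of which 54 are RNA libraries and 20 come from injected wild-type mice. The mice were male C57BL/6 animals (C57BL/6N in the methods) of 10 weeks kept on night-restricted feeding. Both groups received dex at 1 mg/kg by intraperitoneal injection 30 min before food returned at ZT12 (zeitgeber time, hours after lights on), had food, and were killed at ZT14. The dex + S961 mice also received S961, at 44 nM per mouse in the words of the labels. The remaining injected mice had a vehicle injection and food, S961 and food, or a vehicle injection and no food, with 4 mice in each group. In a separate experiment, 4 fed mice without Irs1 and Irs2 in hepatocytes (L-IRSdKO, floxed alleles removed by an albumin-driven Cre) and 4 fed floxed controls also received dex at 1 mg/kg. The L-IRSdKO mice were kept on night-restricted feeding at 10 weeks of age and had a C57BL/6J background. Each library is poly(A) RNA from the liver of 1 mouse, so cells other than hepatocytes contribute to every value.

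Insulin rises with a meal and, through its receptor, the IRS adaptors, and AKT, keeps FOXO transcription factors out of the nucleus and activates SREBP1c, so that the fed liver stores glucose and makes lipid. Glucocorticoids act through the glucocorticoid receptor (GR), which binds DNA and raises genes of gluconeogenesis and amino acid breakdown, many of which insulin restrains. Blocking the insulin receptor in a fed mouse also acts on fat, muscle, and pancreas, so changes in the liver may follow from its own receptor or from fuels and hormones that reach it.

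The RPKM values (reads per kilobase of transcript, scaled to the depth of the library) were compared after adding 0.5 and taking log2, so fold changes of low genes are understated. The values fall on steps of 1 read, which give 6416591 to 10714898 reads for the dex libraries and 7972956 to 11339926 reads for the dex + S961 libraries. Replicates 1 to 3 of each injected group carry library labels of 1 series and replicate 4 carries labels of another, so each group holds both series. The 6 hepatocyte markers summed to between 44220 and 77210 RPKM in the dex libraries and between 50800 and 66750 RPKM in the dex + S961 libraries. Of the markers of Kupffer, endothelial, stellate, biliary, blood, fat, and pancreatic cells that could be tested, 0 passed in limma and 4 had an unadjusted p under 0.05. Over all genes, 1771 of 11254 had an unadjusted limma p under 0.05. Of the 4 markers, 1 endothelial and 1 stellate marker were called lower with a replicate block (the replicate numbers 1 to 4 as a term), which also called more genes in all. The 10 Kupffer cell markers summed to 83.8 to 170.3 RPKM in dex and 97.1 to 160.3 RPKM in dex + S961 livers, the 6 endothelial markers to 63.5 to 81.3 and 61.5 to 76.9 RPKM, and the 4 adipocyte markers to at most 0.303 and 0.326 RPKM, with 3 or 4 of them at 0 in every one of the 8 libraries. Lyve1, an endothelial marker, read 16.5, 15, 15.4, and 11.9 RPKM with dex and 10.4, 8.62, 8.12, and 10.1 RPKM with dex + S961, and its adjusted p was 0.0986, or 0.047 with a replicate block. Lyve1, at -0.63 on the log2 scale, was the only one of the 6 endothelial markers below 0, and their median was 0.14. All 5 tested stellate markers were below 0, from -0.94 to -0.1 with a median of -0.34. In whole liver, fewer cells of a type and less RNA per cell cannot be told apart.

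S961 on top of dex raised 196 genes and lowered 136 of the 11254 genes tested. Genes of fat use and storage (Angptl4, G0s2, Cyp4a10, Acsl1), FOXO-linked genes (Txnip, Sesn1, G6pc), and regulators of glycogen and G-protein signalling (Ppp1r3g, Rgs16) rose, and genes of sterol synthesis (Mvd, Sqle) and the lipogenic regulator Srebf1 fell. The 332 genes passed limma's moderated test at a Benjamini-Hochberg (BH) adjusted p of 0.05, and they are 2.95% of the genes tested, with 1.74% higher and 1.21% lower. Of all genes tested, 10.2% had dex + S961 values that did not overlap the dex values, and 81 of the 332 changed by more than 1 on the log2 scale. The median over all genes was -0.05. With the libraries scaled to a common median ratio it was -0.01, and 249 genes passed upward and 107 downward, while quantile normalization gave 212 and 104. With the replicate numbers as a block, 675 of the 11254 genes passed, and with the first library series alone, 516 genes. Counts of list genes under these settings stand beside these totals and not beside the 332. A term for the library series gave 390 rises and 353 falls. A fit of the 8 libraries alone, without the spread of the other groups, gave 144 rises and 60 falls. In that fit the calls of Pdk4, Gm15441, 9030619P08Rik, Slc25a20, Cpt2, Wipi1, Inhbe, Abcb4, Nr1i2, and Elovl3 among the rises, and of Tff3, Hhex, Tuba8, Fads1, Fads2, Agxt, Per2, and Saa3 among the falls, were lost (adjusted p = 0.0507 to 0.117). Single libraries mattered, since 205 genes passed without dex replicate 2, 178 without dex + S961 replicate 2, and 220 without dex + S961 replicate 4. All of the 332 genes that could be tested under each alternative kept their sign, but the alternatives refit the same libraries by which these genes were called.

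**Figure D1:**
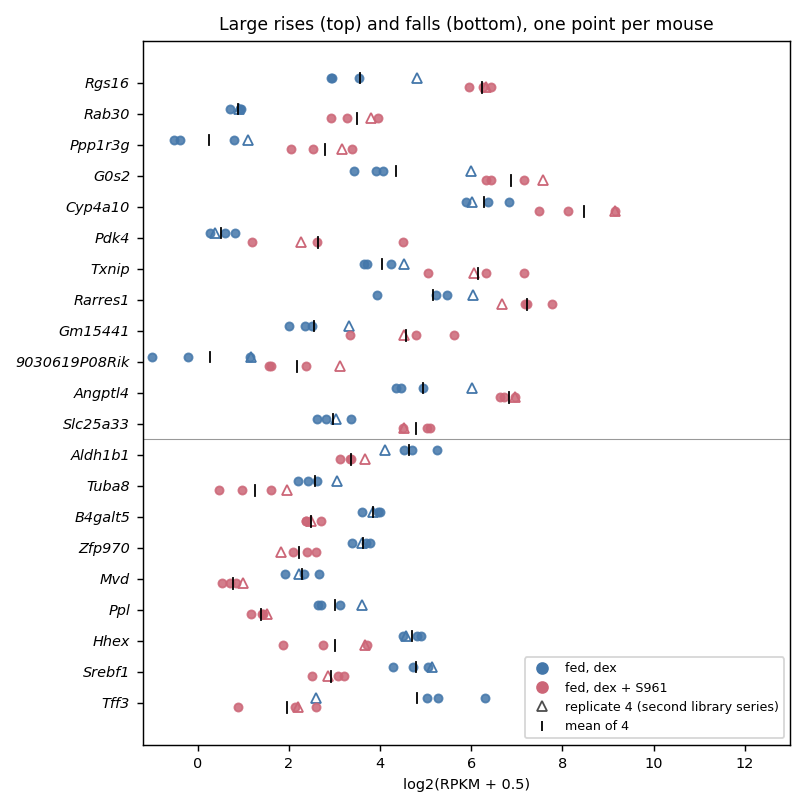
The log2(RPKM + 0.5) value (x axis) of the 12 largest rises and 9 of the 12 largest falls in each of the 4 dex (blue) and 4 dex + S961 (red) livers, 1 point per mouse, with triangles for replicate 4 and ticks for the means. The rises include Rab30, with values from 1.15 to 1.44 RPKM in dex and from 7.11 to 15 RPKM in dex + S961 livers, and the falls include Srebf1, with values from 19.1 to 34.6 and from 5.17 to 8.82 RPKM.

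Among 20 tested FOXO-linked genes that insulin restrains, 5 rose and none fell, and their median log2 fold change was 0.24. Values are given in the order of replicates 1 to 4 throughout. Txnip, which encodes a protein that limits glucose uptake, read 12.1, 12.6, 18.4, and 22.6 RPKM with dex and 32.9, 142, 79.8, and 66.1 RPKM with dex + S961. Every dex + S961 liver was above every dex liver, and the log2 fold change was 2.12 ± 0.38 (SE, n = 4 per group here and below, adjusted p = 0.00417). Gm15441, a transcript that overlaps Txnip on the opposite strand, rose by 2.02 ± 0.41 (log2, with an adjusted p of 0.0532 in a fit of the 8 libraries alone), but without strand information its reads and those of Txnip cannot be told apart. Sesn1, a stress-induced inhibitor of mTORC1, read 4.22, 4.56, 3.84, and 5.4 RPKM with dex and 13.5, 19.7, 12.2, and 13.3 RPKM with dex + S961, a log2 fold change of 1.59 ± 0.16 (adjusted p = 6.1e-05). Ccng2, an atypical cyclin that slows the cell cycle, read 5.12, 3.84, 2.72, and 4.36 against 9.7, 12.8, 10.3, and 10.7 RPKM (log2 fold change 1.35 ± 0.18, adjusted p = 0.000513). For both genes the lowest dex + S961 liver lay well above the highest dex liver. G6pc, the catalytic subunit of glucose-6-phosphatase that releases glucose from the hepatocyte, read 44.4, 68.5, 62.3, and 40.1 RPKM with dex and 137, 135, 171, and 121 RPKM with dex + S961. Its log2 fold change was 1.4 ± 0.33 (adjusted p = 0.0234), with no overlap between the groups. Leaving out dex replicate 1 or 4, or dex + S961 replicate 1, 2, or 3, took the adjusted p of G6pc to between 0.0504 and 0.0692. Pdk4, the kinase that shuts pyruvate dehydrogenase and spares glucose, read 1.26, 0.715, 1.02, and 0.803 RPKM with dex and 1.8, 22.3, 5.67, and 4.32 RPKM with dex + S961. The groups did not overlap and the log2 fold change was 2.13 ± 0.56 (adjusted p = 0.0437), but dex + S961 replicate 1 was near the dex livers. Without any 1 library other than that one, the adjusted p of Pdk4 was between 0.0663 and 0.164.

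FOXO1 peaks of unfed livers lay close to the start sites of Txnip, Pdk4, and Ppp1r3g, and these peaks are shown because each holds TGTTTAC, the core letters that FOXO proteins bind, on 1 of its strands. The sequences are the plus strand of mm9, and the capitals mark TGTTTAC or its reverse complement GTAAACA. The Txnip peak (chr3:96361658-96361837) lies 133 bases upstream of the start in an exon of the noncoding Gm15441, the Pdk4 peak (chr6:5446540-5446719) lies 320 bases upstream between genes, and the Ppp1r3g peak (chr13:36051702-36051881) lies 1083 bases downstream in an intron.
Txnip: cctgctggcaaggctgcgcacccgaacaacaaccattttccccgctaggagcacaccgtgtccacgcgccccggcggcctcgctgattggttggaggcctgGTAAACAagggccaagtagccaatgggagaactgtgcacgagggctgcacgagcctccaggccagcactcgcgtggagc
Pdk4: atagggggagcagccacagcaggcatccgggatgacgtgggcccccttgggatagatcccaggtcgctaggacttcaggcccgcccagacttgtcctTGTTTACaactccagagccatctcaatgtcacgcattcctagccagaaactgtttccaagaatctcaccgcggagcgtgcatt
Ppp1r3g: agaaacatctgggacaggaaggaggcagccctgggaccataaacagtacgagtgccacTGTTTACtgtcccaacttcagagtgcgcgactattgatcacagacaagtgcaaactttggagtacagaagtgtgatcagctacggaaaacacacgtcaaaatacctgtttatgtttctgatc
A match of letters is a description of the window and not a test of binding.

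The remaining 15 FOXO-linked genes did not pass. Igfbp1, a secreted binding protein for insulin-like growth factors, read 65.8, 42.9, 32, and 25.6 RPKM with dex and 108, 197, 79, and 62.8 RPKM with dex + S961. The lowest dex + S961 liver was below the highest dex liver, and the log2 fold change was 1.37 with a 95% interval of 0.20 to 2.53 (adjusted p = 0.221). Ppargc1a, a coactivator of gluconeogenic genes, read 4.64, 5.13, 4.77, and 3.64 against 4.07, 6.44, 3.9, and 5.86 RPKM (log2 fold change 0.12, interval -0.19 to 0.44). Bcl6, a repressor that opposes PPARα, read 5.97, 3.43, 6.58, and 28.7 against 10.9, 2.19, 2.62, and 2.42 RPKM, with 1 library of each group far above the rest.

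Of 26 tested components of insulin signalling 0 passed in limma and 6 had an unadjusted p under 0.05, beside 1771 of all 11254 genes. The list had a median log2 fold change of -0.03, and 1 fell with the replicate block. The insulin receptor gene Insr read 16.8, 15.1, 17, and 12.4 RPKM with dex and 17.4, 18.8, 19.7, and 15.6 RPKM with dex + S961 (log2 fold change 0.22, interval -0.06 to 0.50). Irs1 read 1.04, 1.53, 1.87, and 1.68 against 0.959, 1.25, 1.09, and 1.01 RPKM (-0.35, interval -0.68 to -0.01, adjusted p = 0.294). Irs2, an adaptor whose gene FOXO proteins raise in fasting, read 1.68, 0.844, 1.22, and 0.919 against 1.22, 2.94, 1.89, and 2.38 RPKM (0.63, interval -0.11 to 1.36). The groups overlapped for each of these 3 genes. Foxo1 read 14.8, 13.1, 15, and 14.3 RPKM with dex and 17.5, 16.3, 15.9, and 18.1 RPKM with dex + S961. It was higher in every dex + S961 liver but by 0.24 only, with an adjusted p of 0.179.

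Of 31 tested genes linked to PPARα, the receptor for fatty acids, and to lipid droplets, 13 rose and 1 fell, with a median log2 fold change of 0.74 beside -0.05 for all genes. Angptl4, a secreted inhibitor of lipoprotein lipase, read 21.6, 19.9, 30.5, and 64 RPKM with dex and 99.2, 125, 105, and 125 RPKM with dex + S961 (log2 fold change 1.88 ± 0.28, adjusted p = 0.00114). G0s2, which inhibits the lipase that opens lipid droplets, read 10.3, 14.5, 16.2, and 63.5 RPKM with dex and 79.5, 142, 86.4, and 191 RPKM with dex + S961 (2.53 ± 0.53, adjusted p = 0.0105). For both genes dex replicate 4 was the highest dex liver, yet below every dex + S961 liver. Cyp4a10, a fatty acid ω-hydroxylase, read 58.4, 113, 82.4, and 64.4 against 180, 565, 278, and 569 RPKM (2.20 ± 0.40, adjusted p = 0.00417). Acot1, which frees fatty acids from coenzyme A in the cytosol, read 7.18, 9.11, 7.14, and 9.12 against 22.6, 40.9, 25.3, and 33.2 RPKM (1.81 ± 0.28, adjusted p = 0.00114). Both have near-identical neighbours in the genome, so the split of reads among family members is uncertain. Cyp4a14, such a neighbour, ran from 17.4 to 186 RPKM with dex and from 63.7 to 650 RPKM with dex + S961, and its rise of 2.21 did not pass (adjusted p = 0.171). Fgf21, a hormone that PPARα raises in fasting, read 0.489, 0, 0.294, and 0 RPKM with dex and 0.369, 1.82, 0.694, and 1.58 RPKM with dex + S961 (1.17, adjusted p = 0.185). The 1 fall in the list was Lpl, the lipase that Angptl4 inhibits, named here after its value was seen. It read 10.1, 6.86, 7.85, and 6.53 RPKM with dex and 4.09, 3.1, 3.42, and 3.19 RPKM with dex + S961. The groups did not overlap, and the log2 fold change was -1.06 ± 0.26 (adjusted p = 0.0275). Without dex replicate 1, 2, or 3, or dex + S961 replicate 2, 3, or 4, the adjusted p of Lpl was between 0.052 and 0.0923.

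A FOXO1 peak in the 3′ UTR of Angptl4 is shown by 2 short stretches, since they hold the letters of both factors. The capitals mark TGTTTAC in chr17:33911777-33911795 and ACANNNTGT, the spaced letters that GR binds, in chr17:33911833-33911853 (mm9, plus strand).
Angptl4, FOXO letters: ggaacaTGTTTACttgaac
Angptl4, GR letters: cagagaACAAAATGTtctgag

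All 23 tested genes of fatty acid oxidation and ketogenesis had log2 fold changes above 0, from 0.04 to 0.69 with a median of 0.34, and 5 of them rose. Acsl1, which attaches coenzyme A to fatty acids, read 407, 361, 417, and 336 RPKM with dex and 513, 603, 629, and 721 RPKM with dex + S961 (log2 fold change 0.69 ± 0.12, adjusted p = 0.00377). It was higher in each of the 4 dex + S961 livers than in any dex liver. Slc25a20, the carnitine carrier of the mitochondrial membrane, rose by 0.60 ± 0.12, and Cpt2, the inner carnitine palmitoyltransferase, by 0.34 ± 0.08 (adjusted p = 0.0107 and 0.0199, and 0.0507 and 0.0677 in a fit of the 8 libraries alone). Cpt1a, the regulated entry step, read 144, 125, 113, and 101 against 153, 161, 150, and 136 RPKM, and its difference of 0.32 did not pass (interval 0.07 to 0.58, adjusted p = 0.185). With the replicate block or with the first library series alone, 8 genes of the list rose. The call of Cpt2 was lost without dex replicate 1 or dex + S961 replicate 2 (adjusted p = 0.0644 and 0.0612). Ppara itself read 45.1, 38.9, 36.2, and 64.5 against 62.3, 71.6, 64.5, and 64.4 RPKM, with an adjusted p of 0.176 that fell to 0.0107 with the first library series alone.

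**Figure D2:**
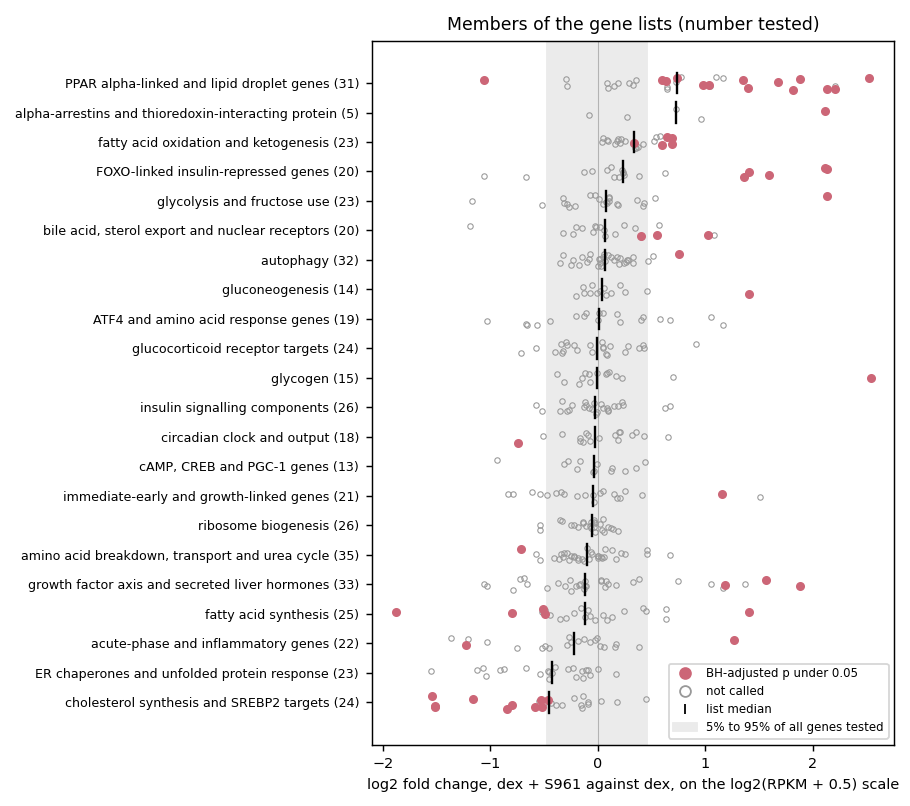
Log2 fold change (dex + S961 against dex) of each tested gene in the gene lists, 1 point per gene, with called genes in red, a black tick for the median of each list, and grey shading for the middle 90% of all genes tested. The PPARα and lipid droplet list has the median of 0.74 and the cholesterol list that of -0.45, and the median of all genes is -0.05.

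Of 24 tested genes of cholesterol synthesis and of SREBP2, 10 fell and none rose, with a median log2 fold change of -0.45. Mvd, the decarboxylase that ends the mevalonate steps, read 3.26, 4.57, 5.86, and 4.21 RPKM with dex and 1.29, 1.15, 0.961, and 1.49 RPKM with dex + S961 (-1.51 ± 0.19, adjusted p = 0.000178). Sqle, squalene epoxidase, read 28, 31.8, 39.7, and 18.2 against 16.1, 11.4, 11.8, and 11 RPKM (-1.16 ± 0.23, adjusted p = 0.00731). For both genes every dex + S961 liver was below every dex liver. Not every member was lower. Cyp51, the lanosterol demethylase, read 26.9, 21, 28.4, and 27.4 against 30.1, 20.7, 22.9, and 23.6 RPKM (-0.09, interval -0.38 to 0.19). Hsd17b7, a later enzyme of the pathway, read 13.1, 12.4, 15.4, and 8.53 against 16.1, 17.8, 16.7, and 16.2 RPKM, higher in every dex + S961 liver, with a difference of 0.45 that did not pass (adjusted p = 0.185).

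Of 25 tested genes of fatty acid synthesis, 1 rose and 4 fell, with a median log2 fold change of -0.12, and with the replicate block 2 rose and 6 fell. Srebf1, which encodes the lipogenic factor SREBP1, read 19.1, 32.9, 25.8, and 34.6 RPKM with dex and 8.82, 5.17, 7.99, and 6.81 RPKM with dex + S961. Its log2 fold change of -1.88 ± 0.22 (adjusted p = 0.00014) was the largest fall in the list. The RNAs of the retention proteins that hold SREBPs in the endoplasmic reticulum moved in opposite directions. Insig2 read 37.5, 41.6, 35, and 30.2 RPKM with dex and 80.7, 126, 71.6, and 115 RPKM with dex + S961 (1.41 ± 0.23, adjusted p = 0.00247). Insig1 read 41.9, 46.8, 53, and 50.5 against 29.2, 26.2, 31.9, and 22.8 RPKM (-0.80 ± 0.19, adjusted p = 0.0272). Fads1 and Fads2, the desaturases of long polyunsaturated fatty acids, fell by 0.49 and 0.51 on the log2 scale (adjusted p = 0.0275 and 0.0351). Fasn, fatty acid synthase, read 25.8, 31.2, 33.3, and 34 against 24.2, 23, 26.3, and 27.3 RPKM, and its difference of -0.29 did not pass (interval -0.56 to -0.03, adjusted p = 0.254). Outside the list, Elovl3, an elongase of saturated fatty acids, read 29.5, 7.88, 15.1, and 29.2 against 64.7, 62.3, 32.8, and 58.1 RPKM (1.52 ± 0.32, adjusted p = 0.0102, and 0.0987 in a fit of the 8 libraries alone). Insig1 was not called without dex replicate 2, 3, or 4 or dex + S961 replicate 2 or 4 (adjusted p = 0.0552 to 0.0909), Fads1 without dex replicate 1, 2, or 3 or dex + S961 replicate 1, 2, or 4 (0.0526 to 0.1), and Fads2 without dex replicate 1 or 4 or dex + S961 replicate 1, 2, or 4 (0.0692 to 0.126).

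In glucose metabolism few genes passed. Of 14 tested genes of gluconeogenesis, G6pc rose and none fell, with a median log2 fold change of 0.04. Of 23 tested genes of glycolysis and fructose use, Pdk4 rose and none fell, with a median of 0.08, and with the replicate block 3 rose and 2 fell. Of these 23, 8 had an unadjusted limma p under 0.05 (3 higher and 5 lower), beside 1771 of all 11254 genes. The groups did not overlap for 3 higher and 4 lower members, beside 10.2% of all genes. Of 15 tested glycogen genes, Ppp1r3g rose and none fell, with a median of -0.01, and 1 also fell with the replicate block. An unadjusted limma p under 0.05 was reached by 1 of the gluconeogenesis genes and 3 of the glycogen genes. Ppp1r3g targets protein phosphatase to glycogen and is known to follow fasting and feeding. It read 1.24, 0.267, 0.2, and 1.65 RPKM with dex and 5.32, 9.98, 3.65, and 8.49 RPKM with dex + S961 (log2 fold change 2.54 ± 0.49, adjusted p = 0.00674). Its relative Ppp1r3c read 43.2, 57.9, 64, and 103 against 122, 87, 102, and 107 RPKM (0.70, adjusted p = 0.299), with dex replicate 4 inside the dex + S961 range.

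Of 24 tested targets of the glucocorticoid receptor 0 passed in limma and 5 had an unadjusted p under 0.05, beside 1771 of all 11254 genes. The median log2 fold change was -0.01, and 1 rose and 1 fell with the replicate block, which also called more genes in all. Pck1, the gluconeogenic phosphoenolpyruvate carboxykinase, read 985, 1240, 949, and 955 RPKM with dex and 1190, 1060, 921, and 809 RPKM with dex + S961 (-0.06, interval -0.46 to 0.34). Tat, tyrosine aminotransferase, read 2100, 2330, 1830, and 2280 against 2080, 1960, 1530, and 1760 RPKM (-0.22, interval -0.69 to 0.24). Fkbp5, a chaperone of the receptor, read 84.9, 101, 89.7, and 74.3 against 96.9, 98.1, 96.2, and 86 RPKM (0.11, interval -0.26 to 0.49). The groups overlapped for all 3, and the intervals reach to at most 0.69 from 0. Klf15, a factor that raises amino acid breakdown, read 77.7, 95.9, 75.7, and 107 against 65.5, 75.2, 67.6, and 69.1 RPKM (-0.35, interval -0.68 to -0.01, adjusted p = 0.303). Sgk1, a kinase gene that glucocorticoids raise, read 57.8, 31.2, 28.9, and 19.6 against 26.8, 17.4, 16.4, and 17.8 RPKM (-0.71, adjusted p = 0.193, or 0.033 with the replicate block). Cdkn1a, the cell cycle inhibitor p21, read 29.4, 33.4, 25.7, and 20.9 against 42.8, 64.6, 32.8, and 76.2 RPKM (0.91, adjusted p = 0.172). Nr3c1, the gene of the receptor, read 16.1, 14.5, 18.4, and 10.3 against 11.5, 11.2, 14.8, and 9.87 RPKM (-0.30, adjusted p = 0.543), with overlap.

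Several lists held few calls, where 2.95% of all genes tested passed. Among 33 genes of secreted hormones and the growth factor axis, Angptl4, Lepr, and Inhbe rose, and the median was -0.12. Lepr, the leptin receptor, read 2.53, 4.13, 2.59, and 1.22 RPKM with dex and 6.8, 11.7, 6.84, and 8.15 RPKM with dex + S961 (1.56 ± 0.35, adjusted p = 0.0175). Inhbe, a subunit of activin E, read 6.01, 5.16, 8.41, and 15.3 against 21.4, 15.5, 19, and 19.9 RPKM (1.19 ± 0.30, adjusted p = 0.0377). Lepr lost its call without dex replicate 4 (0.0532) or dex + S961 replicate 2 (0.0788), and Inhbe without any 1 library other than dex replicate 4 (0.0614 to 0.135). Klf10, a glucose-responsive repressor, rose among 21 immediate-early genes, from 2.87, 4.94, 5.78, and 5.32 to 9.27, 13.8, 10.9, and 9.82 RPKM (1.15 ± 0.18, adjusted p = 0.00136). Per2 fell among 18 clock genes, by 0.75 on the log2 scale (adjusted p = 0.0369, and up to 0.143 without dex + S961 replicate 2), and it stayed under the threshold only without dex replicate 1. Cyp8b1, the sterol 12α-hydroxylase of bile acid synthesis, read 140, 90.8, 112, and 150 against 277, 254, 186, and 283 RPKM (1.03 ± 0.22, adjusted p = 0.0127, or 0.0542 without dex replicate 2). It rose with the phospholipid exporter Abcb4 (0.55) and the xenobiotic receptor Nr1i2 (0.40) among 20 genes of bile acids and nuclear receptors. Of these 20, 11 had an unadjusted limma p under 0.05 (8 higher and 3 lower), beside 1771 of all 11254 genes. In a fit of the 8 libraries alone the adjusted p of Abcb4 was 0.0579. The call of Nr1i2 was lost without any 1 library other than dex + S961 replicate 3 (adjusted p = 0.0526 to 0.0909). Cyp7a1, the rate-limiting enzyme of bile acid synthesis, read 88.8, 73.2, 88.5, and 119 against 38.8, 23.3, 60.5, and 44.7 RPKM, lower in every dex + S961 liver, with a difference of -1.19 and an adjusted p of 0.0975, or 0.0228 with the replicate block.

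Il1rn, the antagonist of the interleukin-1 receptor, rose and Saa3, an acute-phase protein, fell among 22 acute-phase and inflammatory genes, and their list had a median of -0.22. Il1rn read 0.959, 0.576, 0.461, and 0.383 RPKM with dex and 1.34, 3.65, 1.56, and 2.37 RPKM with dex + S961 (1.27 ± 0.26, adjusted p = 0.00992). The call of Saa3 (-1.22, adjusted p = 0.0485), whose gene has close relatives, was lost without any 1 library other than dex + S961 replicate 1 (0.0529 to 0.146). Wipi1, which acts in autophagosome formation, rose by 0.75 (adjusted p = 0.0199) as the only one of 32 autophagy genes, and 3 rose with the replicate block. Its call was lost without dex replicate 1 or 2 or dex + S961 replicate 2 or 4 (0.0581 to 0.0803). Ulk1, the kinase that starts autophagy, read 20, 20.6, 16.8, and 27.6 against 23.9, 26.6, 23.7, and 31.8 RPKM (0.33, interval -0.03 to 0.68). Agxt, an alanine and glyoxylate aminotransferase, fell by 0.72 (adjusted p = 0.049) as the only one of 35 genes of amino acid breakdown, transport, and the urea cycle, while 7 fell in the first library series alone. In the fit that gave the 332 calls, 2.95% of all genes tested passed, and 1 call among 32 or 35 genes is near that share. Leaving out any 1 library other than dex replicate 4 took the adjusted p of Agxt to between 0.0543 and 0.167. Of 23 genes of endoplasmic reticulum chaperones, 0 passed in limma and 12 had an unadjusted p under 0.05, all lower. Over all genes, 1771 of 11254 had such a p in either direction. Of the 23, 21 had negative log2 fold changes (median -0.43), and 4 fell with the replicate block. Sdf2l1, a chaperone complex member, read 5.6, 10.2, 19.2, and 25.8 RPKM with dex and 7.33, 2.84, 3.56, and 3.82 RPKM with dex + S961 (-1.55, adjusted p = 0.0665, or 0.0293 with the replicate block). Hspa5, the chaperone BiP, read 231, 305, 477, and 446 against 274, 183, 241, and 193 RPKM (-0.67, adjusted p = 0.146, or 0.0489 without dex replicate 1). In limma 0 of 13 cAMP and PGC-1 genes, 0 of 19 ATF4 and amino acid response genes, and 0 of 26 genes of ribosome biogenesis passed, with 1, 6, and 2 at an unadjusted p under 0.05 and medians of -0.03, 0.01, and -0.05. Asns, asparagine synthetase, spread from 3.85 to 31.8 RPKM in the dex livers alone.

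Genes outside these lists made up most of the largest changes. Rgs16, a brake on G-protein signalling whose RNA in liver rises in fasting, read 7.12, 7.27, 11.1, and 27.8 RPKM with dex and 61.9, 85.8, 76.5, and 80.1 RPKM with dex + S961 (2.69 ± 0.53, adjusted p = 0.00711). Rab30, a small GTPase of the Golgi, read 1.15, 1.44, 1.4, and 1.38 against 7.11, 15, 9.14, and 13.5 RPKM (2.61 ± 0.29, adjusted p = 0.000115). Slc25a33, a mitochondrial carrier of pyrimidine nucleotides, read 9.86, 5.68, 6.53, and 7.7 against 32.2, 33.9, 22.3, and 22.7 RPKM (1.83 ± 0.23, adjusted p = 0.000212). These 3 genes kept their calls in all 20 alternatives. Rarres1, a retinoic acid responder, read 36.9, 14.9, 43.8, and 65.5 against 219, 150, 144, and 102 RPKM (2.04 ± 0.36, adjusted p = 0.00377). The uncharacterised 9030619P08Rik rose by 1.90 (adjusted p = 0.0349), from at most 1.76 RPKM to at least 2.48 RPKM, and was not called without dex replicate 1 or 2 or dex + S961 replicate 3 or 4 (0.0845 to 0.119).

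Tff3, a trefoil peptide, had the largest fall among called genes whose groups did not overlap. It read 77.9, 38.4, 32.4, and 5.59 RPKM with dex and 5.57, 1.34, 3.92, and 4.1 RPKM with dex + S961 (-2.85 ± 0.66, adjusted p = 0.0221). The groups nearly met at dex replicate 4, and the call was lost without dex replicate 1, 2, or 3 or dex + S961 replicate 2 (0.0615 to 0.0992). Hhex, a homeobox factor of hepatocytes and bile ducts, read 27.7, 22.1, 29.3, and 23.4 against 6.26, 3.14, 12.7, and 12.3 RPKM (-1.69 ± 0.43, adjusted p = 0.0389). Ppl, the junction protein periplakin, read 5.74, 8.17, 6.03, and 11.6 against 1.77, 2.19, 2.17, and 2.38 RPKM (-1.63 ± 0.22, adjusted p = 0.000513). Hhex lost its call without any 1 of the dex libraries or without dex + S961 replicate 1 or 2 (0.0576 to 0.161), whereas Ppl kept its call in all 20 alternatives. B4galt5, which makes lactosylceramide, read 11.6, 15.4, 15.1, and 13.8 against 4.71, 4.69, 6.08, and 5.14 RPKM (-1.35 ± 0.17, adjusted p = 0.000177). In B4galt5, every dex + S961 liver was below every dex liver. Aldh1b1, a mitochondrial aldehyde dehydrogenase, fell by 1.27, the zinc finger gene Zfp970 by 1.39, and the tubulin gene Tuba8 by 1.32 on the log2 scale (adjusted p = 0.0199, 0.0398, and 0.0398). Each lost its call when single libraries were left out, up to 0.0842 for Aldh1b1 without dex replicate 2 (also without dex replicate 3 or dex + S961 replicate 2), up to 0.12 for Zfp970 without dex + S961 replicate 2 (also without every other library except dex + S961 replicate 3), and up to 0.13 for Tuba8 without dex + S961 replicate 1 (also without every other library except dex replicate 1 and dex + S961 replicate 4).

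Whether the response to S961 differed between dex and vehicle injection was tested by the difference of the responses, which share no library. No gene passed, 0% of the 11254 tested in limma, and 511 had an unadjusted p under 0.05. Without dex replicate 4, or with the first library series alone, 4 genes passed. S961 given without dex raised 106 genes and lowered 108 against the fed vehicle (1.9% of genes, 0.942% higher and 0.96% lower), and 142 and 60 with median-ratio scaling. These counts depended on the fit, since 16 genes rose and 8 fell when the vehicle and S961 groups were fitted alone, and 196 rose and 234 fell with the replicate block, so the shares below hold for the fit of 5 groups. The number of calls was 113 without vehicle replicate 1 or without vehicle replicate 2, and 126 and 116 without S961 replicate 2 or 4. Of the 196 genes that rose on top of dex, 73 (37.2%, and 68.9% of the 106) also rose without dex, and 186 had the same sign, beside 33.8% of all genes with a positive sign. Of the 136 that fell, 38 (27.9%, and 35.2% of the 108) also fell without dex, and 132 had the same sign, beside 66.2% of all genes with a negative one. The difference, with minus without dex, was positive in 162 of the 196 that rose, beside 6359 of all 11254 genes. It was negative in 112 of the 136 that fell, beside 4895 of all genes. The libraries by which these genes were called also enter the difference, so genes chosen this way tend to show a larger response with dex.

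Srebf1 read 34.3, 35.2, 49.6, and 42.1 RPKM with vehicle and 9.57, 11.7, 7.28, and 16.5 RPKM with S961, a log2 fold change of -1.84 beside -1.88 on top of dex, and the difference was -0.04 (95% interval -0.70 to 0.61). For Mvd the responses were -1.54 and -1.51 (difference 0.02, interval -0.54 to 0.58), and for Txnip 2.30 and 2.12 (-0.18, -1.32 to 0.96). These intervals are wide enough to hold differences of 0.5 or more in either direction. Sesn1 read 4.23, 4.45, 5.03, and 3.25 RPKM with vehicle and 4.89, 6.87, 7.61, and 5.78 RPKM with S961, so its response was 0.51 without dex and 1.59 with it. The difference of 1.07 (interval 0.61 to 1.54) had an unadjusted limma p of 0.000124 and an adjusted p of 1. Rarres1, like Sesn1 among the genes called on top of dex, responded by 0.28 without and 2.04 with dex (difference 1.77, interval 0.70 to 2.84). Ppp1r3c was lower with S961 alone, at 8.75, 15.4, 14.4, and 10.7 RPKM against 42.8, 20.1, 39.2, and 11 RPKM with vehicle (-1.02, adjusted p = 0.127). Its response on top of dex was 0.70, and the difference was 1.71 (interval 0.76 to 2.67). Ppargc1a rose with S961 alone, from 2.12, 2.34, 1.81, and 2.09 to 3.44, 3.56, 4.11, and 5.12 RPKM (0.81, adjusted p = 0.00923), where with dex its values overlapped (difference -0.68, interval -1.13 to -0.24). The adjusted p was 1 for every one of these differences.

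**Figure D3:**
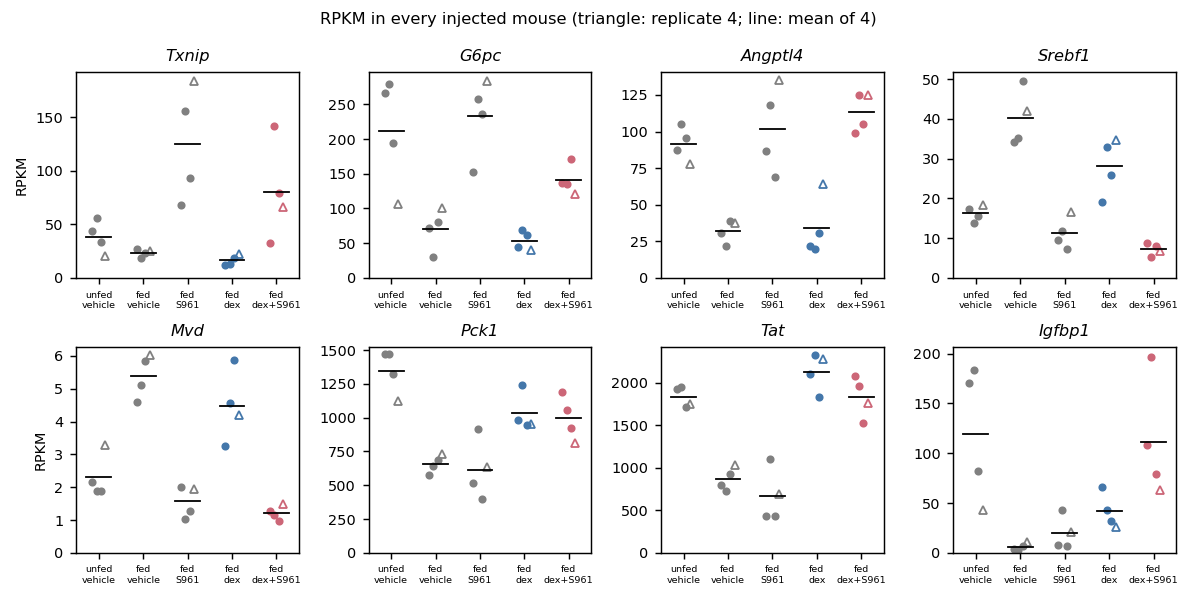
RPKM of selected genes in each liver of the 5 injected groups (unfed vehicle, fed vehicle, fed S961, fed dex, fed dex + S961), 1 point per mouse. Srebf1 lies between 5.17 and 16.5 RPKM in the 8 fed livers with S961 and between 19.1 and 49.6 RPKM in the 8 fed livers without it.

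The meal itself was compared in mice without dex or S961. Fed vehicle livers differed from unfed vehicle livers in 350 genes (3.11%), with 285 higher (2.53%) and 65 lower (0.578%). The split depended on the scaling, since median-ratio scaling gave 111 higher and 108 lower. Of the 196 genes that S961 raised on top of dex, 16 were lower and 3 higher after the meal, and 145 had a negative sign, 74% beside 33.1% of all genes. Of the 136 that S961 lowered, 31 were higher after the meal and 0 lower, and 121 had a positive sign, 89% beside 66.9% of all genes. Angptl4 read 87.6, 105, 95.9, and 77.8 RPKM in unfed livers and 30.5, 21.7, 38.8, and 37.4 RPKM in fed livers (-1.52, adjusted p = 0.0078). Igfbp1 read 170, 183, 82.2, and 42.8 against 3.69, 3.28, 6.8, and 11.2 RPKM (-4.08, adjusted p = 0.00288). Both had values with dex + S961 nearer to those of unfed livers than their values with dex had. Pck1 and Tat also fell after the meal, by 1.02 and 1.08 (adjusted p = 0.0078 and 0.0139), and did not pass with S961 on top of dex. Klf10 was higher after the meal (0.70, adjusted p = 0.0379) and rose with S961 as well. Without fed vehicle replicate 1, 2, or 3 the meal called 153, 119, and 180 genes, and without unfed vehicle replicate 1, 2, or 3 it called 118, 86, and 115.

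L-IRSdKO livers lack the adaptors in hepatocytes only, under the same dose of dex with food. Irs1 read 2.21, 4.7, 4.73, and 4.5 RPKM in controls and 0.149, 0.155, 0.321, and 0.17 RPKM in L-IRSdKO livers (-2.66, adjusted p = 0.000903). Irs2 read 0.614, 1.63, 5.61, and 0.929 RPKM in controls and 0.272, 1, 0.932, and 0.886 RPKM in L-IRSdKO livers, with overlap (-0.79, adjusted p = 0.308). By their 1-read steps, the RPKM of these libraries rest on 3602176 to 4440399 reads, fewer than the study's sequencing summary lists for them. Abundant RNAs take a smaller share, with Alb at 863 ± 54.0 RPKM (SD, n = 4) in controls beside 48915 ± 12696 RPKM in the dex livers. L-IRSdKO replicate 1 stood apart, with Foxo1 at 3.29 RPKM beside 16, 19.9, and 17.8 RPKM in the other 3 and 15 to 18.3 RPKM in controls.

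L-IRSdKO changed 2248 genes (17.3%), 1172 higher (9.04%) and 1076 lower (8.3%). Of the 196 genes that S961 raised, 79 (40.3%) were higher and 12 lower in L-IRSdKO, and of the 136 that it lowered, 36 (26.5%) were lower and 9 higher. Without L-IRSdKO replicate 1, 105 (53.6%) of the genes raised were higher and 20 (10.2%) lower. Of the genes lowered, 49 (36%) were then lower and 11 (8.09%) higher. In that fit, 11.7% of all genes were higher and 11.6% lower. The number of L-IRSdKO calls was 1479 without control replicate 4 and 1079, 1151, and 1135 without L-IRSdKO replicate 2, 3, or 4. In Txnip the effects were 2.12 for S961 and 2.39 for L-IRSdKO (difference -0.28, adjusted p = 0.81), and in Srebf1 -1.88 and -1.82 (-0.07, adjusted p = 0.95). Igfbp1 was at 28, 73.7, 55.6, and 47.4 RPKM in controls and at 351, 532, 559, and 509 RPKM in L-IRSdKO livers. The effect in L-IRSdKO and that of 1.37 with S961 differed by -1.93 (adjusted p = 0.0284). Lepr rose by 5.22 in L-IRSdKO and by 1.56 with S961 (difference -3.66, adjusted p = 0.000513). Ppargc1a was higher by 2.18 in L-IRSdKO beside 0.12 with S961 (-2.06, adjusted p = 0.00189).

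The S961 and L-IRSdKO experiments used different substrains. S961 was injected shortly before the meal, whereas L-IRSdKO is a gene deletion already in place. The hepatocyte markers summed to between 2123 and 2739 RPKM in the L-IRSdKO experiment, beside 44220 to 77210 RPKM in the dex livers. Whether fold changes of abundant RNAs are on the same scale in both experiments was not tested. The parts of substrain, timing, and library scale in the differences between the experiments cannot be told apart. The effects of S961 and of L-IRSdKO differed in 979 of 12430 genes (7.88%), or in 645, 581, and 630 without dex + S961 replicate 1, L-IRSdKO replicate 2, or L-IRSdKO replicate 4. Some genes were called in opposite directions. G0s2 rose with S961 but read 81.9, 61.5, 66.5, and 103 RPKM in controls and 42.2, 15.2, 15.6, and 18 RPKM in L-IRSdKO livers (-1.87 beside 2.53, difference 4.39, adjusted p = 0.00151). Inhbe read 33.7, 31.9, 22.1, and 37.7 against 13.2, 2.89, 2.3, and 2.42 RPKM (-2.82 beside 1.19, difference 4.01, adjusted p = 0.00135). Elovl3 read 75.2, 86.2, 119, and 63.1 against 13.7, 2.27, 7.12, and 1.54 RPKM (-4.08 beside 1.52, adjusted p of the difference 0.000621). These 3 genes rose in wild-type livers with S961 and fell in L-IRSdKO livers. Tff3 read 0, 1.15, 1.2, and 0.548 against 13.2, 41.2, 38.9, and 24.5 RPKM (4.64 beside -2.85, difference -7.49), and Lpl 1.9, 3.68, 2.55, and 4.43 against 4.79, 21.2, 23, and 25.5 RPKM (2.22 beside -1.06, difference -3.28, adjusted p = 0.00291). Angptl4, Acsl1, and Acot1, which rose with S961, had log2 fold changes of 0.34, -0.06, and 0.87 in L-IRSdKO, with differences of 1.54, 0.75, and 0.94 (adjusted p = 0.0171, 0.0157, and 0.0276). Genes called with S961 were chosen by libraries that also enter this difference. Of the 196 that rose, 153 had a positive difference, beside 5154 of all 12430 genes. Of the 136 that fell, 105 had a negative one, beside 7276 of all genes.

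**Figure D4:**
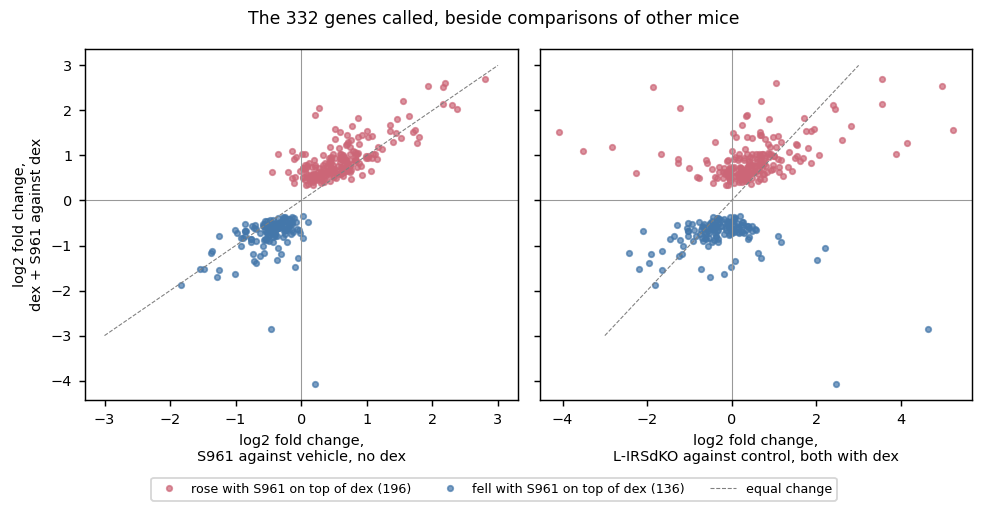
Log2 fold changes of the 332 genes called with S961 on top of dex (y axis) beside those of the same genes with S961 alone (left, x axis) and in L-IRSdKO (right, x axis), 1 point per gene, with a dashed line of equal change. Neither x axis shares a library with the y axis, and on the right G0s2, Elovl3, and Inhbe lie above 0 on the y axis and below 0 on the x axis.

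Peaks of GR and FOXO1 from livers of unfed mice were set beside the called genes. Of the 11254 tested genes 9760 had a position in mm9, among them 166 that rose and 122 that fell. A FOXO1 peak lay within 50 kb of the start of 139 (83.7%) of the genes that rose, 64 (52.5%) of those that fell, and 51.2% of all. A GR peak lay within 50 kb of 141 (84.9%), 80 (65.6%), and 48.5%, and both kinds lay near 76.5%, 43.4%, and 37.3%. Sites open to DNase I lay near 100%, 99.2%, and 99.7%, with means of 9.29, 8.78, and 7.98 sites per gene. Genes that rose thus had both kinds of peak more often than all genes, and their neighbourhoods also held more open sites, whose part in the difference was not tested. The letters TGTTTAC were in 18.8% of 8546 FOXO1 peaks, 7.3% of 10446 GR peaks, and 4.4% of 83592 DNase I sites, and ACANNNTGT in 12.7%, 20.3%, and 6%, counting both strands. Of the FOXO1 peaks near genes that rose, 65 of 361 (18%) held TGTTTAC, beside 15 of 122 (12.3%) near genes that fell and 18.2% near all tested genes. G0s2 had 9 GR and 4 FOXO1 peaks within 50 kb, G6pc 7 and 3, Txnip 6 and 4, Pdk4 6 and 5, and Angptl4 3 and 4. Among the falls, Mvd and Sqle had 0 of either kind, and Srebf1 had 0 GR and 1 FOXO1 peak. Genes not called with S961 had such peaks too, with 7 and 4 at Pck1, 6 and 6 at Tat, and 9 and 6 at Klf15.

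**Figure D5:**
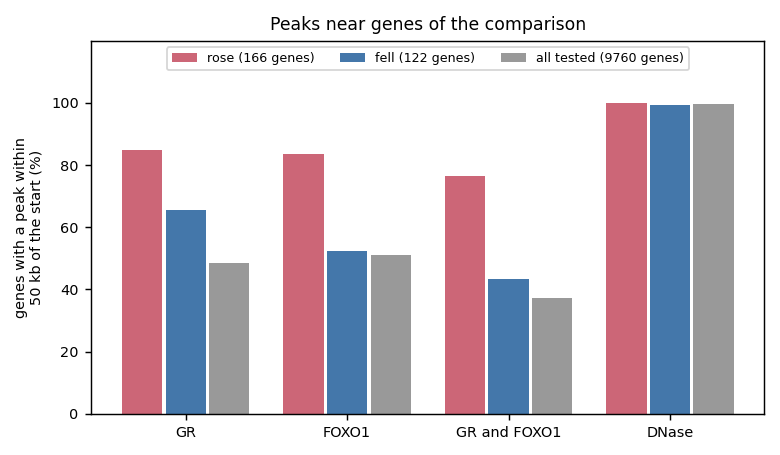
Share of genes (%) with a GR, FOXO1, or DNase I peak within 50 kb of the start, for genes that rose, genes that fell, and all genes tested with a position. FOXO1 peaks lie near 83.7%, 52.5%, and 51.2%, and DNase I sites near nearly all genes of each kind.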

How the data were processed

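Per the methods and labels, the authors made poly(A) libraries from single livers, aligned reads to mm9 with STAR, and deposited RPKM values on RefSeq transcripts, and used DESeq2 for their own calls. The unit removes depth and transcript length but makes no correction for a few abundant RNAs, and the strand counted is not given in the sources used here. The deposited peak lists, called with HOMER, hold positions, of other type than a measurement. The labels and methods give the S961 dose in different units, and 1 label field ends the antagonist's name in another digit in the 4 dex + S961 samples and in 3 of the 4 samples of S961 without dex, so the titles were used.

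Here, 35707 RefSeq IDs (35407 with a symbol) were reduced to 24312 symbols by the ID of highest mean, and 0 value columns were left unused. Genes averaging 0.5 RPKM or more across the 20 injected libraries were fitted on log2(RPKM + 0.5) with limma 3.58.1 in R 4.3.3, with a variance trend and 1 mean for each of the 5 groups, at a BH-adjusted p of 0.05. L-IRSdKO was fitted on its own 8 libraries, and its difference from S961 on 16. Same-numbered dex and dex + S961 libraries deviated from their group means with correlations of 0.149, 0.108, 0.196, and 0.443. Different-numbered libraries reached 0.152 (dex 1 with dex + S961 3) and 0.16 (dex 3 with dex + S961 1). Replicate 4 had negative correlations with replicates 1 to 3. These values set replicate 4, of the other library series, apart and do not show pairs among replicates 1 to 3. The replicate block takes its numbers from the titles and is an alternative only. Replicates are separate mice. Peaks were joined within 50 kb in Python 3.11.15 with numpy 2.4.6 and pandas 2.3.3. The pipeline was tested on simulated data. Low values rest on few reads, and intervals cover the spread between libraries.

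The comparison, gene lists, and tests were chosen with earlier results of these data known. Named genes are the 12 largest rises and 12 largest falls among called genes whose groups did not overlap at a mean of at least 1 RPKM, the injection panel genes of the study, up to 5 called genes of each of 22 lists, the 6 genes of largest difference in each test of a difference, members whose failure to pass is described, and Nr3c1, Insr, Irs1, and Irs2. Some of the genes that this rule names are not reported here. Other settings tried were a replicate block, no trend, every RefSeq ID, quantile normalization, scaling to a median ratio, a filter at 2 RPKM or none, pseudocounts of 1 and 0.1, a library series term, the compared groups alone, the first library series alone, each library left out, and windows of 20 and 100 kb. List counts under alternatives, and overlaps without L-IRSdKO replicate 1, were chosen after seeing the data.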

Additional observations from a re-analysis of the deposited data

Results flagged for a closer look

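Of 174 groups of 4 libraries examined, 8 (4.6%) held 1 library far from the other 3 by Dixon's criterion, where chance gives about 1 in 20. In the dex livers these were G0s2 and Bcl6 in replicate 4, at 63.5 and 28.7 RPKM, Pck1 in replicate 2, at 1240 RPKM, and Cpt2 in replicate 1, at 62.9 RPKM, the last below the rest. In the dex + S961 livers, replicate 1 was high for Bcl6 (10.9 RPKM), Sgk1 (26.8 RPKM), and Sqle (16.1 RPKM), and replicate 4 was low for Fkbp5 (86 RPKM).

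The effects of S961 and of L-IRSdKO, both with dex and food, differed in 979 genes (limma, BH-adjusted p under 0.05). Large differences (S961 minus L-IRSdKO, log2) were -7.81 for Cyp2b9, -7.49 for Tff3 (adjusted p = 0.000513 for both), 5.76 for Nat8, 5.6 for Elovl3 (both 0.000621), and -5.50 for H19 (7.29e-07). Cyp2b9, which has close relatives, read 0.049, 6.76, 2.18, and 0 RPKM with dex and at most 0.066 RPKM with dex + S961, so that 2 dex livers carry the S961 side. It read at most 0.266 RPKM in floxed controls and 16.4, 66.3, 93.2, and 61.4 RPKM in L-IRSdKO livers. Nat8, whose gene also has close relatives, read 5.36, 1.33, 2.59, and 7.82 RPKM with dex and 12.3, 7.28, 6.14, and 10 RPKM with dex + S961, and was at 61, 23.9, 27.1, and 37.4 RPKM in controls and at most 4.03 RPKM in L-IRSdKO livers. H19, a fetal noncoding RNA below the filter in the injected mice, was at most 0.689 RPKM with dex, 0.054 RPKM with dex + S961, and 0.12 RPKM in floxed controls, and at least 11.4 RPKM in L-IRSdKO livers.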

How the results depend on the processing

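Of 1715 log2 fold changes of 86 named genes under alternatives, 1531 kept their direction and side of the threshold, 157 lost and 23 gained the call, and 4 changed sign, all in genes not called (Pck1 0.01 with the first library series alone, 0.03 without dex replicate 2, and 0.04 without dex + S961 replicate 4, and Ppargc1a -0.04 with the first library series alone). The 86 genes include ones not called in the fit of 5 groups, which kept their side by staying uncalled. The 157 losses therefore fall on the called genes alone. Over the libraries left out in turn, Pck1 ran from -0.15 to 0.04. The count of genes changed by S961 on top of dex was 743 with a library series term, 204 with the compared groups alone, 516 with the first library series alone, and 178 to 347 with 1 library left out.

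With the replicate block, which treats equal replicate numbers as pairs, 675 genes passed, and named calls changed as given beside them. The block gave 430 genes for S961 alone, 932 for the meal, and 1440 for L-IRSdKO, where pairing was not examined.

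The difference by dex gave 4 genes with the first library series alone and 0 to 4 with 1 library left out. S961 alone gave 323 with all RefSeq IDs, 478 with a library series term, 24 with the compared groups alone, and 113 to 286 with 1 library left out. The meal gave 219 with median-ratio scaling, 215 with quantile normalization, 1037 with a library series term, 725 with the first library series alone, and 86 to 396 with 1 library left out. L-IRSdKO gave 3864 with all RefSeq IDs and 1079 to 3015 with 1 library left out, and its difference from S961 gave 1651 and 581 to 1448. Genes that fell with a FOXO1 peak within 20 kb numbered 42 of 122 (34.4%), beside 33.8% of all tested genes. The cause of these changes was not tested. Genes averaging under 0.5 RPKM were not tested, and low values rest on few reads.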

Other observations

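L-IRSdKO replicate 1 differed from its group in genes that set the comparison with S961. It had Irs1 at 0.149 RPKM, like the other 3, but Foxo1 at 3.29 RPKM, Srebf1 at 18.1 RPKM beside 8.59, 6.9, and 7.82 RPKM, Sesn1 at 16.9 RPKM beside 63.1, 83.8, and 76.6 RPKM, and Lpl at 4.79 RPKM beside 21.2, 23, and 25.5 RPKM. For Srebf1, Sesn1, and Lpl it lay nearer to the floxed controls than the other 3 L-IRSdKO livers did, while its Foxo1 was below every control.

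Rgs16 spanned a wide range across the injected groups. It read 44.2, 42.3, 21.2, and 24.5 RPKM in unfed livers, 1.42, 4.72, 9.15, and 1.21 RPKM in fed vehicle livers, 12.8, 32.8, 15.7, and 55.2 RPKM with S961 alone, and 61.9 to 85.8 RPKM with dex + S961, so that the dex + S961 livers were above every unfed liver. Tff3, which had the largest fall with S961 on top of dex among called genes whose groups did not overlap, was at 5.58 RPKM or less in the unfed, fed vehicle, and S961 livers, and 3 of the 4 dex livers, at 32.4 to 77.9 RPKM, stood above all other injected mice.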
